A study of Homo sapiens with 6 samples.

Results

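The genes described here are 54 regulators of the human cell cycle, from the D-type cyclins of G1 to separase and the proliferation antigen Ki-67. They were chosen by name, with earlier results of these data known. A peak was counted for a gene when it lay wholly inside the gene's span in GRCh38 and on its strand. This gave 80 of the 18431 peaks of a MeTDiff list and 23 of the 6264 summits of a MACS2 list. The 54 genes are set beside all 20033 protein-coding genes of chromosomes 1 to 22, X and Y.

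The cells were PANC-1, an established line of human pancreatic ductal adenocarcinoma, transfected with siRNA. RNA was polyA+ selected, fragmented and precipitated with an antibody against N1-methylguanosine (m1G), a guanine methylated on the N1 atom. Each condition had 1 input library and 2 precipitates: control cells, which the labels call wild type, and cells given siRNA against TRMT5, a tRNA methyltransferase that makes m1G, for 4 days. Whether the precipitates of a condition came from separate cultures is not stated. The lists carry no condition, library or read count, and which of the 6 libraries were pooled for them is not stated. No value below can therefore be assigned to a condition. The depth behind each value is unknown, and knockdown was not compared with control.

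A cell passes through G1, S, G2 and mitosis by turning cyclin-dependent kinases on and off. In G1 the D-type cyclins and their kinases phosphorylate the pocket proteins, which frees E2F transcription factors to switch on the genes of S phase. Cyclin B with CDK1 starts mitosis once CDC25 phosphatases remove the marks that WEE1 and PKMYT1 place on CDK1. Aurora and Polo-like kinases then build the spindle, the spindle checkpoint holds anaphase back until kinetochores are attached, and the anaphase-promoting complex with CDC20 or FZR1 ends mitosis by marking securin and cyclins for destruction. In cancers of the pancreas, as in many others, the G1 arm of this system is commonly deregulated.

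Of the 54 genes, 36 had a MeTDiff peak (66.7%, 95% Wilson interval 53.4 to 77.8, counting error only). Over all protein-coding genes 36.6% had one. Because the genes were chosen with earlier results of these data known, the difference between these shares is a description only. A MACS2 summit lay in 14 of the 54 genes (25.9%, interval 16.1 to 38.9), and over all protein-coding genes in 18.0%, which lies within that interval. All 14 also had a MeTDiff peak, so 25.9% of the cell cycle genes and 16.7% of all protein-coding genes had both. Of the 36 genes with a peak 14 had a summit (38.9%), beside 45.6% of all protein-coding genes with a peak. Many spans overlap other genes. Of the 26 genes that overlap no other gene 18 had a peak (69.2%) and 6 a summit (23.1%), beside 32.2% and 16.2% of protein-coding genes chosen alike. Of the 40 that overlap no other protein-coding gene 24 had a peak (60%) and 8 a summit (20%), beside 34.3% and 17.0%. As a share of genes with an entry in either list, a peak was present in all 36 of these cell cycle genes and in 96.6% of protein-coding genes, and a summit in 38.9% and 47.5%. A transcript must be present to be precipitated, and the lists hold no expression values. Whether a higher share reflects more transcript or more m1G therefore cannot be told apart.

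The first bases of 3 transcripts are shown because a peak or summit reached into them, with guanine, the base that m1G is made from, in capitals. They are RefSeq sequence of GRCh38.p14, written 5′ to 3′ on the strand of the gene. Which guanine was methylated, if any, is not known from fragments of this length. They span chr16:23678889-23678918 (plus strand), chr16:53434471-53434500 (plus strand) and chr5:138338326-138338355 (minus strand).
PLK1: GGaGGctctGctcGGatcGaGGtctGcaGc
RBL2: GGcGGacGGGcGGGcGcttcGccGtttGaa
CDC25C: GaGGtGcccGccccGaGGccccaGcGccac
The PLK1 stretch held 12 guanines of 30 bases, that of RBL2 14 and that of CDC25C 10. The summit of PLK1 lay at base 13 and that of RBL2 at base 23 of the transcript, counted from 1 at the annotated start. The CDC25C peak covered bases 1 to 101, and so the whole stretch shown.

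The number of genes with a peak varied by role. All 5 E2F group genes of the set, both G2/M transcription factors and 7 of the 8 mitotic kinase and spindle genes had one. Of the 9 kinetochore and spindle checkpoint genes 3 did, which is close to the 36.6% of all protein-coding genes. By phase, 6 of 10 genes of G1 had a peak, 7 of 9 of the G1/S boundary, 4 of 7 of mitotic entry, 10 of 17 of mitosis and 4 of 5 of mitotic exit. These counts are small, no test was made between roles, and the phase given to a gene is that of its main textbook role.

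**Figure D1:**
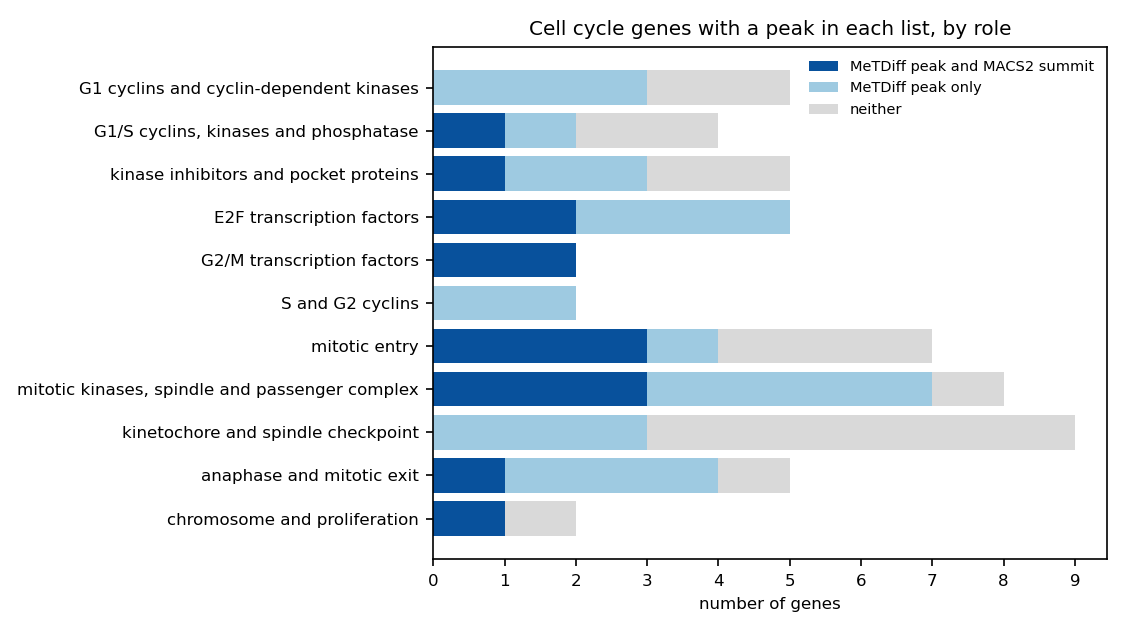
Number of cell cycle genes (x axis) by role (y axis), split into genes with both a MeTDiff peak and a MACS2 summit, with a peak only, and with neither. No gene had a summit without a peak, and the kinetochore and spindle checkpoint row holds 6 of the 18 genes with neither.

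The fold of a MeTDiff peak is the authors' ratio of precipitate over input. The 80 peaks had a median fold of 3.62, from 1.21 to 25.5, and the median over peaks of all protein-coding genes was 4.17. Per gene, the largest fold had a median of 5.31 over the 36 genes and of 6.0 over all protein-coding genes with a peak. A fold of 10 or more was reached by 8 of the 80 peaks (10.0%, interval 5.15 to 18.5), and by 12.5% of peaks of all protein-coding genes. In the MeTDiff list these genes, chosen with earlier results known, were thus present more often than protein-coding genes at large. Their median folds were below those of all protein-coding genes. The folds are coarse. A multiple of 0.25, to within 0.005, was found for 26 of the 80 (32.5%), beside 37.0% of peaks in all protein-coding genes, and 4% would fall there if folds were spread evenly. How many reads stand behind a ratio is unknown.

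**Figure D2:**
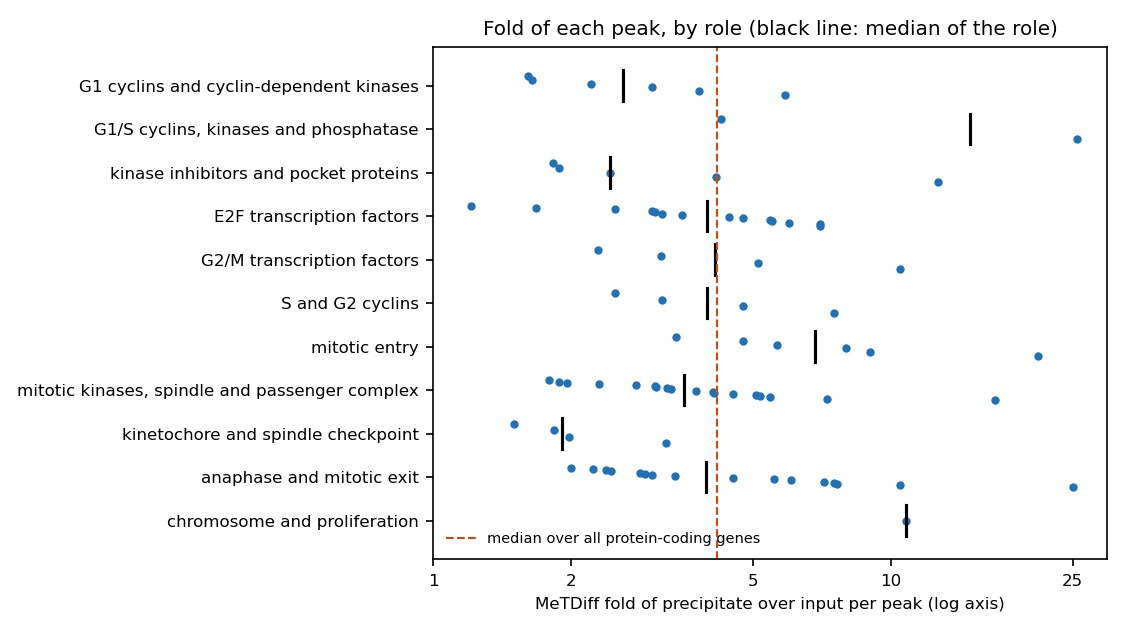
Fold of precipitate over input for each of the 80 MeTDiff peaks (x axis, log scale), by role of the gene (y axis), 1 point per peak. Black lines are medians of a role, and the dashed line is the median of 4.17 over all protein-coding genes. The largest folds belong to CDC25A at 25.5, FZR1 at 25 and WEE1 at 21, while kinetochore and checkpoint genes stay between 1.5 and 3.23.

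The 6 peaks of the G1 cyclins and kinases had folds from 1.61 to 5.88, with a median of 2.6. CCND1, the cyclin D1 gene that drives entry into the cycle, had 3 peaks with folds of 2.21, 5.88 and 1.61 from the 5′ to the 3′ end, at 2.47%, 85.2% and 93.6% of its span. The strongest lay 1967 bp from the 3′ end of the gene (chromosome 11, 69652383 to 69652632, FDR 0.00162). CCND3, a second D-type cyclin, had 2 peaks with folds of 3.8 and 3.0, both near the 3′ end of a span of 115 kb. Its peaks lay at 95.1% and 98.8% of the way. CDK4, a kinase partner of both cyclins, had a single peak with a fold of 1.64. That peak lies within one of fold 1.57 on the opposite strand, in the span that CDK4 shares with TSPAN31, with 101 bp in common. CCND2 and CDK6 had neither a peak nor a summit, and no gene of the G1 cyclin and kinase group had a summit.

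At the G1/S boundary CDC25A stood at the top of the whole set. This phosphatase, which activates CDK2, had 1 peak with a fold of 25.5 (chromosome 3, 48187968 to 48188068, FDR 0.00309), and 1.23% of the peaks in the list had a larger fold. The peak covered bases 350 to 450 from the annotated start. A summit with a score of 13.3 lay 50 bp outside it, on the side of the start. The score is on the −log10 scale that MACS2 uses for its p-values or q-values, and 61.5% of summits scored higher. A large fold and a middling score thus came from the same 5′ region. CCNE1, the cyclin E1 gene, had 1 peak with a fold of 4.25, joined from 3 blocks. Its partner kinase gene CDK2 and CCNE2 had neither a peak nor a summit.

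Among the brakes on G1, RBL2, which encodes the pocket protein p130, had a fold of 12.7 in a peak over bases 49 to 199 (chromosome 16, 53434519 to 53434669, FDR 3.16e-05). Its summit, with a score of 23.1, lay at base 23 of the sequence shown above, 26 bp before the peak. The other pocket protein genes RB1 and RBL1 had neither. CDKN2C, an inhibitor of CDK4 and CDK6, had 3 peaks with folds of 1.88, 1.83 and 4.14, all within 60.4% to 69.0% of the span and all with an FDR of 4.27e-05. CDKN1B, the gene of the inhibitor p27, had 1 peak with a fold of 2.44. Its midpoint was 512 bp from the 5′ end, just outside the 500 bp taken here as the 5′ end of a gene. Each of these brakes except RBL2 had folds at or below the median of all protein-coding peaks.

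All 5 E2F group genes of the set had a MeTDiff peak. Outside the set, E2F5 and E2F6 had one, while E2F7, E2F8 and TFDP2 had neither a peak nor a summit. E2F1, an activator of S phase genes, had 5 peaks. From the 5′ end their folds were 7.0, 3.17, 1.68, 4.44 and 5.44, and the lowest belonged to the peak at 73.7% of the span. The peak nearest the 3′ end (chromosome 20, 33675776 to 33676075, FDR 0.00038) held a summit with a score of 6.37. A second summit, with a score of 6.11, lay 25 bp outside the peaks. About 91.1% and 92.0% of summits in the list scored higher than these. E2F2 had folds of 4.75, 7.0 and 2.5 from the 5′ end, and the last of these had an FDR of 0.0102. E2F4, a family member that mostly acts in repression, had folds of 3.06 and 1.21, the second being the lowest of the 80 peaks.

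E2F3 had 2 peaks close together, with folds of 3.0 and 6.0, at 97.6% and 97.8% of its span. Its summit, with a score of 7.04, was 69583 bp away from them, at 21.8% of the span. The lists therefore marked different parts of the E2F3 span. That span overlaps 4 other genes, 1 of them protein-coding, and summits carry no strand. TFDP1, the gene of the DP1 partner that E2F proteins need to bind DNA, had folds of 5.5 and 3.5, both within the first 867 bases and both with an FDR of 7.08e-06. Peaks at the 5′ end were present in 4 of the 5 E2F group genes of the set, E2F3 being the exception. Such a peak was present in 55.6% of the 36 cell cycle genes with a peak and in 35.9% of all protein-coding genes with one. With 5 genes the group cannot be set apart from the rest, and no test was made.

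Transcription factors of the G2/M genes ranked high by score. MYBL2, the gene of B-MYB, had folds of 10.5 and 2.29, and the first of these had the lowest FDR of the 80 peaks, 2.69e-06 (chromosome 20, 43667217 to 43673868, joined from 2 blocks). Its summit scored 36.8, the second highest of the set. It lay 103 bp from the nearest block, in the gap that the spliced peak jumps. FOXM1, the forkhead factor of mitotic genes, had folds of 5.13 and 3.14 and a summit with a score of 26.4. This summit too lay in a gap of a spliced peak, 83 bp from a block. FOXM1 shares its span with the protein-coding genes ITFG2 and RHNO1, and summits carry no strand.

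The S and G2 cyclins had peaks but no summit. CCNA2, the cyclin A2 gene, had 1 peak with a fold of 2.5 over bases 101 to 301. CCNF, the gene of cyclin F, an F-box protein of a ubiquitin ligase, had folds of 7.5, 4.75 and 3.17 at 26.6%, 29.5% and 94.5% of its span. A further peak with a fold of 5.2 began 3 bp before the annotated start of CCNF and was left out by the rule that peaks lie inside the span.

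Of the 7 genes of mitotic entry 4 had a peak. WEE1 had 1 peak with a fold of 21 (chromosome 11, 9573769 to 9574366, FDR 0.00017), which covered 598 bp, the longest of the 80. The summit inside it had a score of 4.07, the lowest of the 23. WEE1 thus combined the third largest fold with the lowest score. PKMYT1, which phosphorylates CDK1 at the membrane, had folds of 9.0, 8.0 and 5.64 from the 5′ end, at 63.6%, 79.4% and 95.5% of its span. It had 4 summits, with scores of 33.2, 6.64, 8.64 and 10.3 in the same order. Of these, 3 lay inside its peaks and the highest was 10 bp from a block.

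The last PKMYT1 peak shared 282 bp with a peak of fold 4.9 on the opposite strand, where PAQR4 overlaps the gene. The phosphatase gene CDC25B had 1 peak with a fold of 3.4, at 50.4% of the span, which held a summit with a score of 20.6. A second summit, with a score of 13.2, lay 4067 bp from it. CDC25C had 1 peak with a fold of 4.75, at the start of the transcript as shown above. CCNB1, CCNB2 and CDK1 had neither a peak nor a summit.

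Among spindle and mitotic kinase genes, NUMA1 carried the most peaks. It encodes a large protein that gathers microtubules at the spindle poles. Its 8 peaks had folds of 4.52, 16.9, 1.79, 2.3, 7.27, 1.88, 4.08 and 4.11 from the 5′ to the 3′ end, and all lay beyond 84% of a span of 77.7 kb. The strongest (chromosome 11, 72014389 to 72014688, FDR 3.89e-05) held a summit with a score of 24.6. The neighbouring peaks of fold 7.27 and 4.52 held summits of 16 and 7.03, so the lists marked the same stretch. On the opposite strand of the same span were 3 peaks of other gene IDs, with folds of 17.1, 4.52 and 3.89, which shared 298, 299 and 80 bp with peaks of NUMA1. Peaks at the same bases on both strands cannot be told apart from one source, since the strandedness of the libraries is not given in the sources used here.

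The kinase genes mostly had a single peak near the start. PLK1, the main Polo-like kinase of mitosis, had a fold of 5.45 over bases 7 to 106 (chromosome 16, 23678895 to 23678994, FDR 0.000214) and a summit with a score of 23. PLK4, the kinase of centriole duplication, had a fold of 3.75 over bases 101 to 200. AURKA, the spindle pole kinase, had a fold of 5.17 over bases 77 to 177. AURKB, the kinase of the chromosomal passenger complex, differed in place, with a fold of 3.05 in a peak of 3 blocks centred 68.0% along the span. TPX2, an activator of AURKA, had a modest fold of 3.24 but a summit with a score of 34.2, and 13.3% of summits scored higher.

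The passenger complex genes were unlike each other. INCENP, its scaffold, had 5 peaks spread from 0.463% to 78.4% of the span, with folds of 1.96, 2.78, 5.07, 3.31 and 3.07, and no summit. BIRC5, the survivin gene, had neither a peak nor a summit.

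The 3 kinetochore and checkpoint genes with a peak held 4 peaks between them. BUB3 had folds of 3.23 and 1.84, BUB1B, the gene of the checkpoint kinase-like protein BUBR1, a fold of 1.98, and MAD2L1, the gene of the anaphase inhibitor MAD2, a fold of 1.5. The median of these 4 peaks was 1.91, and none of the 9 genes had a summit. BUB1, TTK, CENPA, CENPE, CENPF and NDC80 had neither. In the other kinetochore genes, named separately from the 54, 8 of 18 had a peak (44.4%) and 5 of 18 a summit (27.8%). Over all protein-coding genes these shares were 36.6% and 18.0%. Among the other kinetochore genes SPC24, a partner of NDC80 in the same complex, had a fold of 24.5, and CENPT a score of 39.4. The largest fold among the 9 genes, 3.23, was thus well below that of SPC24.

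Genes of anaphase and mitotic exit held 16 peaks. FZR1, which encodes the CDH1 activator of the anaphase-promoting complex, had 6, with folds of 5.57, 3.38, 2.38, 25, 10.5 and 7.5 from the 5′ end. The strongest (chromosome 19, 3535746 to 3535994, FDR 0.00437) was the second largest of the set, and 1.28% of peaks in the list had a larger fold. The last of the 6, with a fold of 7.5, had the highest FDR of the 80 peaks, 0.0324. No summit lay in FZR1, although it held 2 of the 8 folds of 10 or more. CDC20, the activator that acts before CDH1, showed the reverse. It had folds of 6.06, 2.24 and 4.53 and 3 summits with scores of 8.14, 13.2 and 29.5 from the 5′ end, none of them inside a block of its peaks. The summits were 719, 18 and 39 bp from the nearest block.

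ESPL1, the gene of separase, which cuts cohesin at anaphase, had 6 peaks with folds of 2.45, 7.62, 2.0, 3.0, 2.9 and 2.83 and no summit. Their FDR ran from 0.00776 to 0.0229, above the median of 0.00132 over the 80 peaks. PTTG1, the gene of securin, the inhibitor of separase, had 1 peak with a fold of 7.14, and 931 bp lay between its midpoint and the 3′ end. CDC27, a subunit of the anaphase-promoting complex, had neither a peak nor a summit. Of the other 13 subunit genes of that complex 6 had a peak (46.2%), the largest fold being 10.5 in ANAPC2, and 3 had a summit (23.1%). Over all protein-coding genes these shares were 36.6% and 18.0%.

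MKI67 had the highest score of the set. The gene of Ki-67, a protein that coats mitotic chromosomes and marks dividing cells, had 1 peak with a fold of 10.8 over bases 51 to 301 (chromosome 10, 128126123 to 128126373, FDR 2.45e-05). Its summit scored 50.3 and lay at base 63, and 3.99% of summits in the list scored higher. TOP2A, the topoisomerase of condensing chromosomes and likewise a proliferation marker, had neither a peak nor a summit. With BIRC5, CCNB1, CDK1 and BUB1, it is among the mitotic genes that carried no peak beside MKI67, PLK1, AURKA and TPX2, which did. Genes without a peak were not shorter: their spans had a median of 34.7 kb, against 19.3 kb for those with one, while over all protein-coding genes the medians were 22.1 and 27.6 kb.

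**Figure D3:**
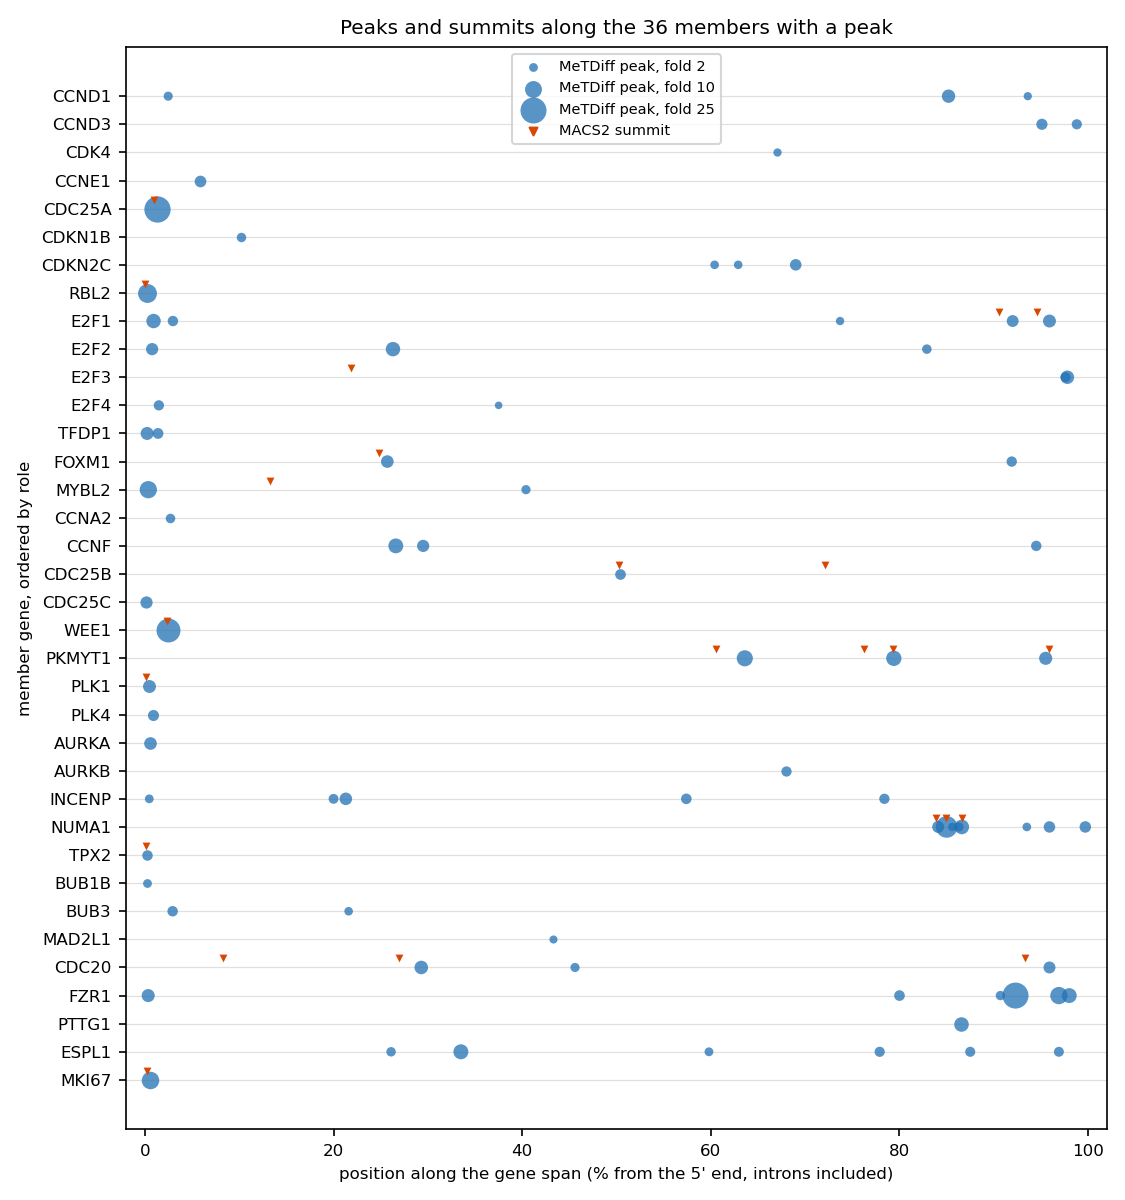
Position of every MeTDiff peak (circles, area growing with fold) and MACS2 summit (triangles) along the gene span, in percent from the 5′ end with introns included, for the 36 cell cycle genes with a peak (y axis). The only peak lies at the 5′ end in genes such as RBL2, PLK1 and MKI67. Peaks gather towards the 3′ end in NUMA1 and, apart from a peak at 0.347% of the span, in FZR1.

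The place of a peak within its gene was not a rule for choosing the genes, though they were chosen with earlier results of these data known. The midpoint of 21 of the 80 peaks was within 500 bp of the 5′ end (26.2%, interval 17.9 to 36.8), and over all protein-coding genes this held for 15.9% of peaks. Of the 36 genes 20 had such a peak (55.6%, interval 39.6 to 70.5), beside 35.9% of all protein-coding genes with a peak. Among the 18 genes with exactly 1 peak it was at the 5′ end in 11 (61.1%, interval 38.6 to 79.7), beside 34.7% of such protein-coding genes. At the 3′ end were 4 of the 80 peaks (5.0%, interval 1.96 to 12.2), beside 6.59%. Of the 23 summits 7 were at the 5′ end (30.4%, interval 15.6 to 50.9), beside 24%. Peaks of a gene share their transcript, so the intervals over peaks are too narrow, and no test was made. The 36 genes had a median span of 19.3 kb, beside 27.6 kb over all protein-coding genes with a peak. Whether this affects shares within a fixed 500 bp was not tested.

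**Figure D4:**
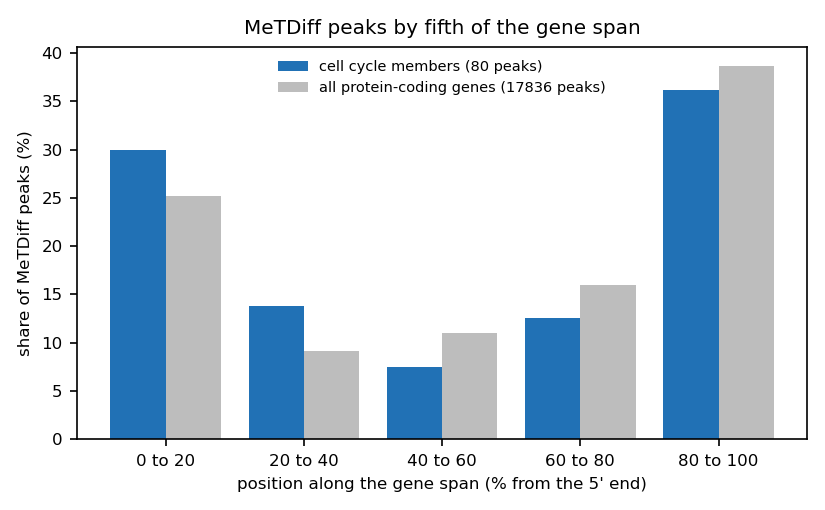
Share of MeTDiff peaks (y axis, percent) in each of 5 equal parts of the gene span from the 5′ end (x axis), for the 80 peaks of the cell cycle genes and the 17836 assignments of peaks to protein-coding genes. Both sets are highest in the part nearest the 3′ end, with 36.2% and 38.7%, and next in the part nearest the 5′ end, with 30% and 25.2%.

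The peaks at the 5′ end had larger folds than the others, as they did across the list. Their median fold was 4.75, and that of the remaining 59 peaks was 3.38, while over all protein-coding genes the medians were 5.5 and 4.0. Of these 21 peaks 16 had a midpoint within 200 bp of the start, and they belonged to 16 genes. In 5 the first base covered was base 51, and the first bases ran from 1 in CDC25C to 350 in CDC25A. In PLK1, TPX2, MKI67 and WEE1 a summit lay inside the 5′ peak.

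**Figure D5:**
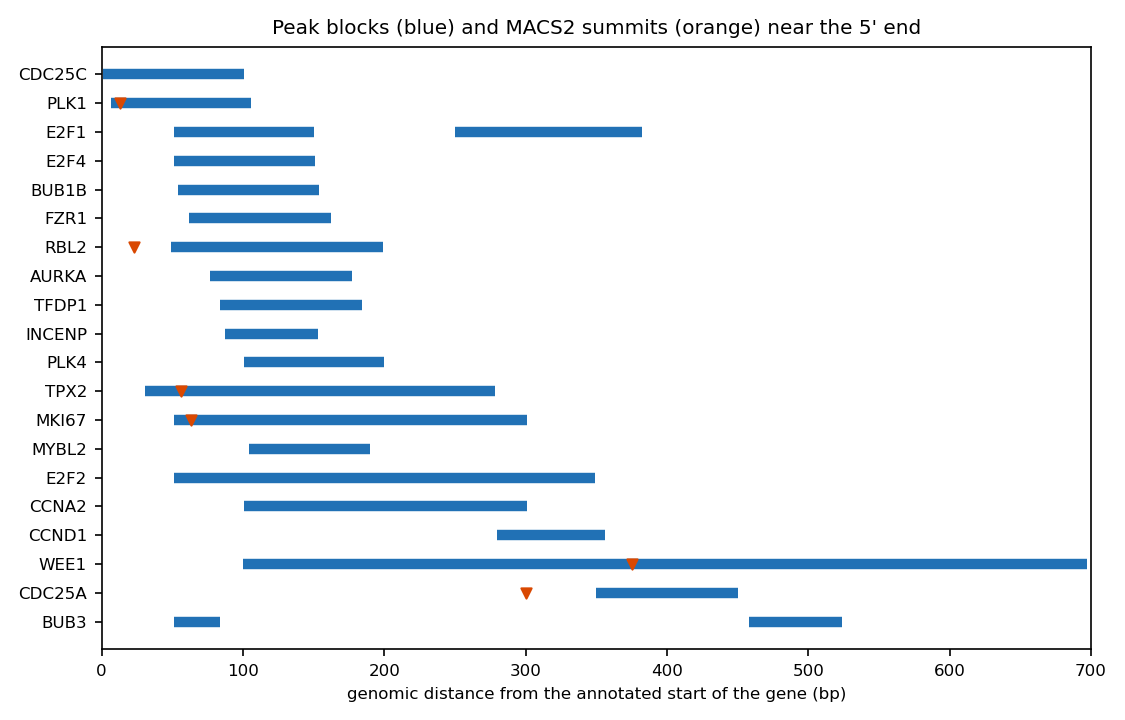
Blocks of MeTDiff peaks (blue bars) and MACS2 summits (orange triangles) in the opening stretch of the 20 cell cycle genes that have a 5′ peak, by genomic distance from the annotated start (x axis). Blocks of 1 spliced peak are drawn apart, and the first bases run from 1 in CDC25C to 350 in CDC25A.

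The lists were then compared by position. Of the 23 summits 12 lay inside a peak of the same gene (52.2%, interval 33.0 to 70.8), and over all protein-coding genes 35.8% did. These 12 were spread over 8 genes. A further 7 of the 11 outside lay within 100 bp of a block, and 4 of the 11 lay in the gap between blocks of a spliced peak. Peaks that held a summit had a median fold of 5.64, and the other 69 peaks one of 3.23. The score of the 23 summits had a median of 13.3, and that over summits in all protein-coding genes was 16.4. Per gene the order was the other way: the highest score had a median of 23.9 over the 14 genes with a summit and of 18.9 over all such protein-coding genes.

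Promoters were compared because so many peaks lay at the start of the transcript. RefSeq promoter sequence (GRCh38.p14, 250 bases before to 50 after the start) was matched by gene ID for 42 of the 54 genes. Its GC content had a median of 63.7% in the 29 matched genes with a peak and 59.3% in the 13 without, beside 62.7% over 15842 protein-coding genes. Where the peak was at the 5′ end (15 genes) it was 63.7%, and for the 14 with peaks elsewhere only 63.2%. GC content at the promoter therefore differed little between genes with peaks at the start and those with peaks elsewhere.

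The cell cycle homology region (CHR), written TTTGAA, and the CCAAT box are elements of many promoters of G2 and mitosis genes. They were searched on both strands in the 250 bases before the start, and MKI67 shows that they can overlap. TTTGAA was found in 9 of the 29 genes with a peak (31.0%) and 4 of the 13 without (30.8%), beside 10.8% of all protein-coding promoters. CCAAT was found in 15 of 29 (51.7%) and 8 of 13 (61.5%), beside 34.5%. With 13 genes without a peak, these counts are too few to order the groups, and no test was made. The 60 bases before the start are shown for 4 genes that hold TTTGAA there, the first pair with a peak and a summit at the 5′ end, and the other pair with neither. Capitals mark matches to either motif on either strand, and the stretches are chr10:128126424-128126483 (minus strand), chr16:23678829-23678888, chr15:59105086-59105145 and chr2:26785996-26786055 (plus strand).
MKI67: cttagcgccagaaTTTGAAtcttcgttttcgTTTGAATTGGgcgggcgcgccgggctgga
PLK1: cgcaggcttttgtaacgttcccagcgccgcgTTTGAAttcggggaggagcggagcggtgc
CCNB2: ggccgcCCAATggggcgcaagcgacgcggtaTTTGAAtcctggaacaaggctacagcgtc
CENPA: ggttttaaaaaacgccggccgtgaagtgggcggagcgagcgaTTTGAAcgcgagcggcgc
In MKI67, PLK1 and CCNB2 a copy of TTTGAA starts 29 bases before the transcript. A match is a run of letters and not a bound site.

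The wider cell cycle machinery was read from a list of 119 other genes. Of these 52 had a MeTDiff peak (43.7%) and 25 a summit (21%), beside 36.6% and 18.0% of all protein-coding genes. Both are nearer to the shares over all protein-coding genes than the 54 were for peaks. Condensin, which compacts mitotic chromosomes, had a peak in 5 of 8 genes, the phosphatase control of mitosis in 6 of 10 and cohesin, which holds sister chromatids together, in 7 of 12. Other regulators of cyclin-dependent kinases had the fewest, 2 of 11 (18.2%), and the largest fold there was 10.2 in CDKN2D, an inhibitor of CDK4 and CDK6. The counts per group are small, and no test was made between groups.

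Within the remaining groups, 3 of 8 genes of SCF ubiquitin ligases had a peak (37.5%), close to the 36.6% of all protein-coding genes. The largest fold there was 14.5 in FBXW7, which marks cyclin E for destruction. Other E2F and DREAM complex genes had one in 4 of 11 (36.4%), also close to that share, led by E2F5 with 15 and a score of 29.1. Spindle and cytokinesis genes had one in 8 of 18 (44.4%), led by RACGAP1, a regulator of cleavage, with 16.2. Centrosome genes had one in 3 of 10, led by the scaffold gene PCNT with 12.4. In the phosphatase group PPP1CC had a fold of 21.7 and PPP2CA, the catalytic subunit of PP2A, the highest score of the 119, 40.6. In cohesin PDS5A had a fold of 7.3, and in condensin NCAPH2 had 9.33 and NCAPD3 a score of 24.6.

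Markers of cell types were looked up in the lists, where 36.6% of all protein-coding genes had a peak. A peak was present in 6 of 8 genes of ductal and other epithelial cells (KRT8, KRT18, KRT19, EPCAM, MUC1 and SOX9), and KRT7 and CDH1 had none. Of 18 markers of acinar, islet, leukocyte, endothelial and fibroblast cells 1 had a peak, CD68. A missing peak does not show that a transcript was absent, and these few counts do not by themselves establish what the cells were.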

How the data were processed

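The series compared m1G precipitates with input RNA in 6 libraries of PANC-1 cells. Per the submitters' processing notes, the build was GRCh38 and the tools named were MACS2 2.2.5, STAR 2.7.1, featureCounts, Picard, SAMtools, bedtools, ChIPseeker, DESeq2 and edgeR. Their roles, their settings and which libraries were pooled for peak calling were not given in the sources used here. The MACS2 list as deposited holds 1 bp summits with a score on the −log10 scale of p-values or q-values. The MeTDiff list as deposited holds, per peak, a p-value, the log10 of the false discovery rate (FDR) and a fold, which is the ratio of precipitate to input. The file has no header, and column meanings rest on order and values. Of the 18 cell cycle genes with several peaks, 6 repeat an FDR between peaks, so these values are not separate measurements.

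Members and gene lists were chosen with earlier results of these data known. Spans came from a RefSeq gene table (GRCh38.p14), which held all 54 members and all 119 other cell cycle genes, 1 of them by an older symbol. Strand came from RefSeq's promoter table for 42 members and from the gene ID with most peaks in the span for 7, and 5 without peaks had none. The place of a peak is the middle base of its blocks. Genes named with full values had 3 or more peaks or ranked among the 10 largest folds or highest scores, others were named by role, and of the other lists the top genes of each subgroup. Intervals are Wilson's 95% intervals (scipy 1.17.1). No test over genes was made. Peak assignment was tested on simulated data. Depth per library is unknown.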

Additional observations from a re-analysis of the deposited data

Results flagged for a closer look

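Inside the spans of the 54 genes, 6 MeTDiff peaks lay on the opposite strand and were left out of the counts above, which is why they are given here. They fell in 4 genes, CCND1, CDK4, PKMYT1 and NUMA1, and 5 of the 6 overlapped a peak of the gene itself. In CCND1 the peak, with a fold of 3.96, overlapped none.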

How the results depend on the processing

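Of 54 values under alternative settings, 39 stayed within 1.5 times the reported count or, for medians, within the 95% binomial interval of the reported median, and 15 moved. Most moves came from keeping only the 26 genes whose span overlaps no other gene, which lowers counts by construction. This left 18 genes with a peak, 6 with a summit, 6 with both, 40 peaks and 10 summits. It also left 2 peaks at the 3′ end, 10 at the 5′ end and 4 summits inside a peak. The median fold, which is not a count, moved from 3.62 to 3.06. Keeping the 40 genes that overlap no other protein-coding gene, a setting chosen after seeing the data, left 8 genes with a summit and 24 with a peak. With only summits of score 10 or more, 15 summits remained and 7 lay inside a peak. Peaks at the 3′ end numbered 7 with any strand, 2 within 250 bp and 10 within 1000 bp. No paired analysis was possible because the lists carry no libraries or replicate numbers, and for the same reason no library could be left out. Unknown read depth limits every fold and score.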
